A study of Caenorhabditis elegans with 6 samples.

Results

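The 33 genes described here encode subunits of the C. elegans proteasome. They are the genes named pas, pbs, rpt or rpn with a number, 33 of the 25212 genes in the table. They comprise 7 alpha (pas-1 to pas-7) and 7 beta (pbs-1 to pbs-7) subunits of the 20S core, 6 ATPases of the 19S base (rpt-1 to rpt-6), 4 other base subunits (rpn-1, rpn-2, rpn-10 and rpn-13) and 9 lid genes (rpn-3, rpn-5, rpn-6.1, rpn-6.2, rpn-7, rpn-8, rpn-9, rpn-11 and rpn-12). Poly(A)-selected RNA of whole N2 animals, the standard laboratory strain, was sequenced. ASP animals were given 100 µM aspartame, a dipeptide sweetener (libraries ASP 1, 2 and 3). Control animals carry only the label Control (libraries Control 1, 2 and 3). The design text names a Pseudomonas aeruginosa challenge, but whether the animals behind these libraries were exposed to it is not labelled, nor is their age or stage. Separate cultures are not stated, so the spread that p-values rest on is that of the libraries and may be technical.

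The proteasome is the cell's main machine for breaking down ubiquitin-tagged proteins. Its 20S core is a barrel in which the alpha rings form the gate and the beta rings hold the protein-cutting sites, and its 19S cap recognises ubiquitin, removes it, unfolds the substrate and feeds it into the barrel. When proteasome activity falls, worms raise subunit transcripts together through the transcription factor SKN-1A. An RNA level says nothing about the amount or activity of the assembled complex.

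Total counts per library ran from 53558562 to 63581942, and 19372 to 20215 genes per library were above 0. The subunits took 0.548% to 0.596% of all counts. Single subunits had 1644 (rpn-6.2) to 18377 (rpn-1) counts in a library. Markers of intestine, muscle, neurons, epidermis, germ line, oocytes, sperm and molting were above 0 in every library. In RNA from whole animals, fewer cells of a type and less RNA per cell cannot be told apart. Levels are FPKM, fragments scaled by transcript length and library size, so they can be compared between genes of different length. Gene IDs and positions are those of the table, in build WBcel235.

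The subunit transcripts were abundant and lay close together. The median of the 33 means over the 6 libraries was 117 FPKM, against 13.1 FPKM over the 13790 genes tested (mean over the libraries 1 FPKM or higher, as for all 33). Apart from rpn-6.2, every subunit lay at or above the 89.6th percentile of tested genes. The highest of these 32 means was 3.48 times the lowest.

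**Figure D1:**
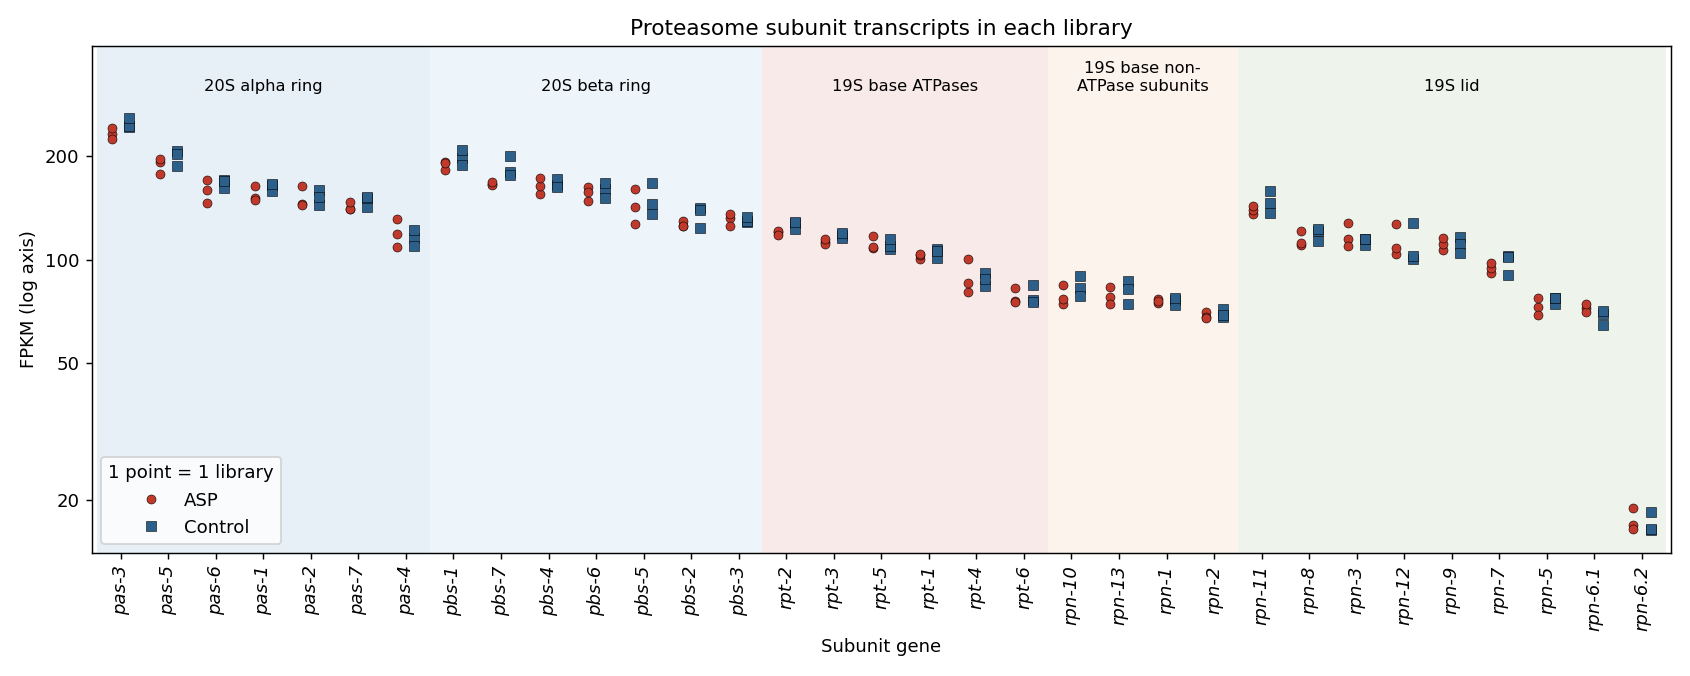
FPKM on a log axis for each proteasome subunit gene, grouped by subcomplex and ordered by mean level within it; 1 point is 1 library, circles for ASP and squares for Control. Apart from rpn-6.2 the means lie between 69.2 and 241 FPKM with ASP and Control libraries mostly intermingled, the 20S core genes lie above most 19S genes, and rpn-6.2 lies alone at a mean of 17.2 FPKM.

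The alpha ring, whose subunits form the outer rings and the gate of the core, held the highest transcript of the complex. This was pas-3 (gene 172139, I 5105110 to 5106048), with 232, 225 and 242 FPKM in ASP 1, 2 and 3, against 244, 245 and 259 FPKM in Control 1, 2 and 3. All 3 ASP libraries lay below the 3 Control libraries. The lowest alpha subunit was pas-4 (gene 172679, I 8727218 to 8728487), with 118.9, 109 and 132 FPKM in ASP, against 116, 109.8 and 122 FPKM in Control, and its groups overlapped. The alpha subunit pas-5 (gene 172942, I 10566350 to 10567300), a common RNAi target for disabling the proteasome, had 193, 177 and 197 FPKM in ASP, against 207, 188 and 203 FPKM in Control. ASP 2 was its lowest library and Control 1 its highest, with overlapping groups. The other 4 alpha genes had means from 146 FPKM (pas-7) to 163 FPKM (pas-6).

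The beta ring carries the proteolytic sites, on pbs-1 (caspase-like), pbs-2 (trypsin-like) and pbs-5 (chymotrypsin-like). pbs-1 (gene 176978, IV 1708814 to 1709745) was the highest of the ring, with 182, 192 and 192 FPKM in ASP, against 199, 189 and 209 FPKM in Control. pbs-2 (gene 173168, I 12967216 to 12968280) had 126, 129.6 and 126 FPKM in ASP, against 142, 124 and 140.0 FPKM in Control. pbs-5 (gene 173334, I 14719167 to 14720477) had 128, 143 and 161 FPKM in ASP, against 145, 136 and 168 FPKM in Control. All 3 catalytic genes overlapped between the groups, and for pbs-5 the library numbered 3 was the highest of each group. The non-catalytic pbs-3 (gene 173858, II 4954480 to 4955427) was the lowest beta gene, with 132, 125 and 136 FPKM in ASP, against 129, 130.1 and 133 FPKM in Control, also overlapping. The non-catalytic pbs-7 (gene 172674, I 8695205 to 8696301) had 167, 165 and 168 FPKM in ASP, against 180.3, 177 and 200.2 FPKM in Control, so that its 3 ASP libraries were below all Control libraries and Control 3 was the highest. The 7 beta means spanned 1.48-fold, against 2.04-fold for the 7 alpha means, and the mean alpha gene stood at 1.07 ± 0.027 times the mean beta gene in ASP and 1.06 ± 0.025 times in Control (SD, n = 3 each).

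The base ATPases unfold substrates and open the gate. Their highest transcript was rpt-2 (gene 178988, V 6016059 to 6017669), with 121, 121 and 118 FPKM in ASP, against 128, 123 and 129 FPKM in Control, and their lowest was rpt-6 (gene 176661, III 12370456 to 12372607), with 76.1, 75.2 and 82.9 FPKM in ASP, against 76.6, 75.4 and 84.2 FPKM in Control. The rpt-2 libraries of ASP lay below those of Control, while those of rpt-6 overlapped. rpt-3 (gene 175925, III 6489793 to 6491282) had 113, 111 and 115 FPKM in ASP, against 118, 115 and 119.4 FPKM in Control, again with every ASP library below every Control library. rpt-5 (gene 172238, I 5741868 to 5743571) had 108, 109 and 117 FPKM in ASP, against 108, 109 and 115 FPKM in Control, with overlapping groups. The 6 ATPase means spanned 1.57-fold, between 78.4 and 123 FPKM. The level of the mean ATPase gene was 0.643 ± 0.0018 times that of the mean core gene in ASP and 0.629 ± 0.0081 times in Control (SD, n = 3 each).

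The other base subunits are the large scaffolds rpn-1 and rpn-2 and the ubiquitin receptors rpn-10 and rpn-13. They were the tightest group, with means within 1.17-fold. rpn-10 (gene 172977, I 10730712 to 10732424) was the highest, with 74.2, 76.6 and 84.4 FPKM in ASP, against 82.6, 78.4 and 89.7 FPKM in Control. rpn-2 (gene 175877, III 6199184 to 6202594), the anchor of rpn-13, was the lowest, with 70.6, 68.3 and 67.6 FPKM in ASP, against 72.0, 67.9 and 68.8 FPKM in Control. Both overlapped between the groups. rpn-1 (gene 177455, IV 6906420 to 6909913) had the most even level of all 33 genes, 75.8 ± 1.13 FPKM in ASP and 75.9 ± 1.77 FPKM in Control (SD, n = 3 each).

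In the lid, which removes ubiquitin chains, the metalloprotease gene rpn-11 (gene 173744, II 4043062 to 4044330) that does the cutting was the highest, with 136, 139.9 and 144 FPKM in ASP, against 146, 137 and 159 FPKM in Control. Control 3 was its highest library and the groups overlapped. The pair of paralogs for the lid scaffold RPN-6 were the lowest lid genes. rpn-6.1 (gene 175972, III 6959110 to 6962001), known for raising proteasome activity and stress resistance in long-lived worms, had 72.4, 70.3 and 74.1 FPKM in ASP, against 69.5, 71.0 and 64.5 FPKM in Control. Control 3 was its lowest library and Control 2 alone reached into the ASP range. rpn-6.2 (gene 176273, III 8999817 to 9001999) had 16.9, 16.4 and 18.9 FPKM in ASP, against 16.4, 16.5 and 18.4 FPKM in Control, with the library numbered 3 highest in each group. It lay at the 58.2nd percentile of tested genes, and rpn-6.1 exceeded it 3.51- to 4.31-fold per library. Reads common to the paralogs may have been split between them in counting, so that ratio is uncertain. The other 7 lid genes had means from 74.7 FPKM (rpn-5) to 144 FPKM (rpn-11).

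Longer subunit transcripts had lower levels. Exonic length, the union of annotated exons in WBcel235, ran from 801 bases for pbs-4 to 3171 bases for rpn-1. Pearson's r between log2 mean FPKM and log2 exonic length was -0.62 over 33 genes and -0.78 without rpn-6.2. This is a description across genes, which share libraries and length scaling, and carries no test. The core genes were all shorter than the base genes, so length and subcomplex cannot be told apart between core and base. In the lid, rpn-12 (855 bases, mean 112 FPKM) lay within the core's range of lengths, which ended at 1059 bases for pbs-5. The other lid genes were longer than every core gene.

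**Figure D2:**
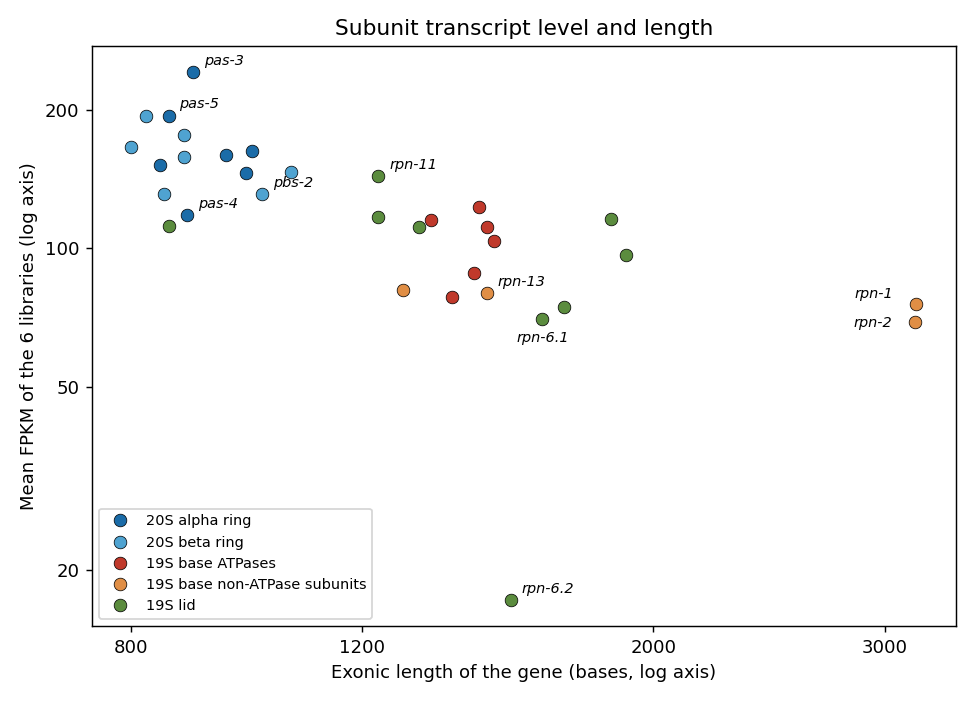
Mean FPKM over the 6 libraries against exonic length in bases, both on log axes; 1 point is 1 subunit gene, coloured by subcomplex. The short core genes lie at upper left, the long scaffold genes rpn-1 and rpn-2 at lower right, and rpn-6.2 lies far below the other 32.

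The 33 genes were spread over the autosomes, with 10 on I, 7 on II, 8 on III, 3 on IV and 5 on V. None was on X, which held 13.7% of tested genes (1887). Each gene had 2 to 7 exon blocks. Another coding gene's annotated span overlapped 10 of them, on the opposite strand for 9 and on the same strand for 1, pbs-7 (K07A12.5). For 8 genes a coding gene on the same strand ended within 500 bases upstream, as 22 bases for pbs-3 (ulp-2) and 54 bases for rpn-6.2. Whether the authors' counting used strand is not given in the sources used here. Overlapped genes, among them pbs-7, rpt-2, rpt-4, rpt-6, rpn-7, rpn-10 and rpn-11, may therefore hold some reads of their neighbours. For pbs-7, overlapped on its own strand, this may hold with stranded counting too.

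Subunit levels varied little between libraries. The coefficient of variation over all 6 libraries had a median of 4.94% (range 1.76% to 11.2%), against 16.4% over all tested genes and 10.2% over the 2025 genes averaging 50 FPKM or more. It was below 10% for 31 of 33 subunits, 23.5% of tested genes and 48.6% of those at 50 FPKM or more. The 2 genes above 10% were rpn-12 and pbs-5. The summed FPKM of the 33 genes was 3887, 3934 and 4169 in ASP 1, 2 and 3, against 4107, 3998 and 4256 in Control 1, 2 and 3. The library numbered 3 had the highest sum in both groups.

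**Figure D3:**
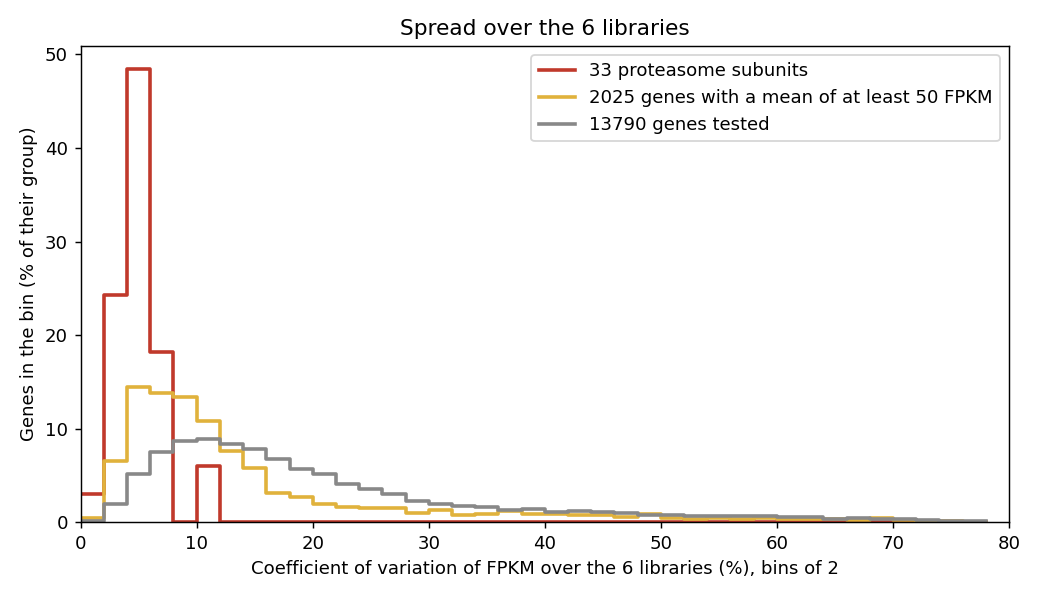
Share of genes, in percent of each group, per bin of 2 percentage points of the coefficient of variation of FPKM over the 6 libraries, for the 33 subunits, the 2025 genes averaging 50 FPKM or more and all 13790 tested genes. The axis ends at 80%, and some tested genes lie beyond it; the subunits lie between 1.76% and 11.2%, at the left edge of both other distributions.

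The comparison of ASP with Control asks how gene expression responds to aspartame. No subunit gene passed the threshold, an adjusted p under 0.05 in edgeR's quasi-likelihood test with Benjamini-Hochberg adjustment over all tested genes. That call was also made for 0% of the 13790 genes. No subunit had an unadjusted p under 0.05, against 62 tested genes. DESeq2 and limma called 0 subunits as well. At an unadjusted p under 0.05 they had 0 subunits, against 73 genes in DESeq2 and 71 in limma on log2(FPKM + 1). Of the 33 log2 differences, 6 were above 0 and 27 below, with a median of -0.07 (all tested genes 0.00022, 50.04% above 0). They ran from -0.18 for pbs-7 to 0.06 for rpn-6.1.

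**Figure D4:**
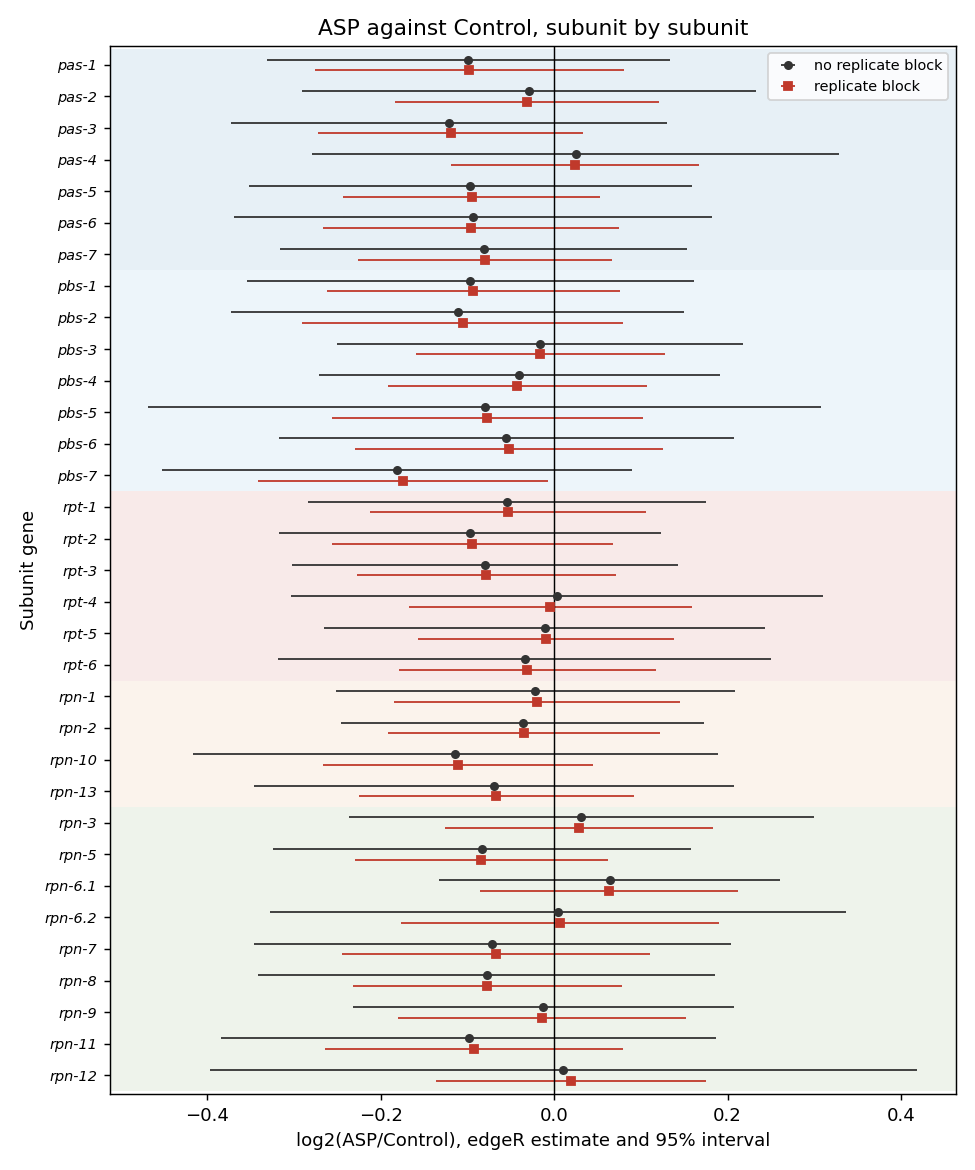
Log2 ratio of ASP over Control with its 95% interval for each subunit gene, from edgeR without the replicate block (dark circles) and with it (red squares); shaded bands mark, from the top, the alpha ring, the beta ring, the base ATPases, the other base subunits and the lid. Estimates lie between -0.18 and 0.06, and every interval without the block spans 0.

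The 3 genes lower in ASP with the smallest p were pbs-7 (log2 -0.18, SE 0.11, 95% interval -0.45 to 0.090), pas-3 (log2 -0.12, SE 0.10, 95% interval -0.37 to 0.13) and rpt-2 (log2 -0.10, SE 0.092, 95% interval -0.32 to 0.12), each at an edgeR adjusted p of 0.9999. The 3 on the higher side were rpn-6.1 (log2 0.064, SE 0.082, 95% interval -0.13 to 0.26), the lid gene rpn-3 (log2 0.031, SE 0.11, 95% interval -0.24 to 0.30) and pas-4 (log2 0.025, SE 0.13, 95% interval -0.28 to 0.33), at the same adjusted p. The catalytic genes had log2 differences of -0.10 (pbs-1), -0.11 (pbs-2) and -0.080 (pbs-5). rpn-3 itself (gene 176196, III 8447353 to 8449346) had 115, 110.0 and 128 FPKM in ASP, against 111, 115 and 115 FPKM in Control, with ASP 3 the highest library and overlapping groups. Across the 33 genes the intervals of this fit, without the replicate block, reached from -0.47 (pbs-5) to 0.42 (rpn-12). These ends belong to different genes, and the interval of each single subunit was narrower. A difference within a subunit's own interval is not excluded by this fit. By subcomplex, 1 of 7 alpha, 0 of 7 beta, 1 of 6 ATPase, 0 of 4 other base and 4 of 9 lid genes were above 0. Their medians were -0.09, -0.08, -0.04, -0.05 and -0.01.

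The count above 0 changed with single libraries. Without Control 3, 17 genes were above 0 (median 0.000046), and without ASP 1, 13 (median -0.02). Without ASP 3, 1 gene was above 0 (median -0.11). The count was 9 without ASP 2, and 3 without Control 1 or without Control 2. Blocked on the replicate number, edgeR again called 0 subunits and 0% of genes. The block left 5 genes above 0 and a median of -0.07, with intervals from -0.34 to 0.21. Only pbs-7 then had an unadjusted p under 0.05, at an edgeR adjusted p of 0.997 (log2 -0.17, SE 0.073). In that edgeR fit 2.68% of the 13790 tested genes (369) had an unadjusted p under 0.05. On FPKM, limma gave 9 genes above 0 and a median of -0.05 (all tested genes 0.01).

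Within pairs of libraries of the same number, on FPKM, 25, 22 and 20 of 33 subunits were lower in ASP in pairs 1, 2 and 3. Over all tested genes 45.2%, 57.3% and 39.2% were lower in these pairs. The pair medians of the subunits were -0.08, -0.01 and -0.02, against 0.02, -0.03 and 0.07 over all tested genes. In pair 2 the subunit median was thus above that of all tested genes. In all 3 pairs 9 subunits were lower (pas-3, pas-5, pas-7, pbs-7, rpt-2, rpt-3, rpt-6, rpn-10 and rpn-8), and 0 were higher. Over tested genes 8.88% were lower and 12.8% higher in all 3 pairs. The list changed with the scaling. In library-scaled counts with TMM, edgeR's normalization, rpt-2, rpt-6 and rpn-8 were higher in ASP in pair 2. On that scale pas-3, pas-5, pas-7, pbs-7, rpt-3, rpn-5 and rpn-10 were lower in all 3 pairs, and pas-4 and rpn-6.1 were higher. The shares of tested genes on that scale were not examined.

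For 4 subunits (pas-3, pbs-7, rpt-2 and rpt-3) every ASP library lay below every Control library in FPKM, as for 1.10% of tested genes. For 0 subunits every ASP library lay above, as for 2.28% of tested genes. This depended on the scaling. In library-scaled counts with TMM, edgeR's normalization, 0 subunits were lower in this way (1.21% of tested genes) and 1, rpn-6.1, was higher (1.86%).

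The balance of core to cap transcripts, a ratio within each library, did not overlap between the groups. The mean core gene stood at 1.63, 1.65 and 1.62 times the mean 19S gene (rpn-6.2 left out) in ASP 1, 2 and 3, against 1.67, 1.68 and 1.69 times in Control 1, 2 and 3. The means were 1.63 ± 0.013 in ASP and 1.68 ± 0.0099 in Control (SD, n = 3 each). The ratio was chosen with the values in view, so no test is given, and it shows unequal levels only. How often ratios between other gene groups separate ASP from Control was not examined. Core genes were all shorter than base genes and than the lid genes other than rpn-12, and length was not separated from subcomplex in this ratio.

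The libraries also carry replicate numbers 1 to 3, and libraries of the same number deviated together across genes. What a number marks is not labelled. In a model with group and number, edgeR called the replicate number for 3 of 33 subunits, rpn-12, pbs-5 and pas-4, against 33.2% of the 13790 tested genes. Their edgeR adjusted p were 0.00904, 0.029 and 0.034, and the next gene, rpn-10, had 0.0578. Without ASP 1 the number of subunits called was 1 (3702 of 13761 genes), and without any other single library it was 2 (3343 to 5068 genes).

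Number 2 against number 1 called 0 subunits in edgeR, against 3.84% of tested genes. At an unadjusted p under 0.05 in edgeR were 0 subunits, against 17.97% of tested genes. DESeq2 and limma on log2(FPKM + 1) also called 0 subunits, against 875 and 297 genes. At an unadjusted p under 0.05 these had 0 subunits, against 14.96% of genes in DESeq2 and 16.5% in limma. Of the subunits 13 were above 0 and 20 below, with a median of -0.01 (all tested genes -0.0042). The lowest was rpn-13 (log2 -0.14, SE 0.085) and the highest rpt-4 (log2 0.11, SE 0.087).

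Number 3 against number 2 had all 33 subunits above 0, with a median log2 ratio of 0.18 (all tested genes -0.0024, 49.6% above 0). Of these, 3 passed the threshold in edgeR, all higher, against 24.3% of tested genes called and 12.1% called higher, so the share of subunits called was below that of tested genes. The lid gene rpn-12 (gene 174786, II 11653124 to 11654192) had 127 and 128 FPKM in ASP 3 and Control 3, against 108 and 103 FPKM in ASP 2 and Control 2 and 104 and 101 FPKM in ASP 1 and Control 1. Both libraries numbered 3 stood above the other 4. In edgeR it rose in number 3 over number 2 by log2 0.37, SE 0.083 (adjusted p 0.0149). The catalytic pbs-5 had 161 and 168 FPKM in ASP 3 and Control 3, against 143 and 136 FPKM in ASP 2 and Control 2 and 128 and 145 FPKM in ASP 1 and Control 1, again with both libraries numbered 3 highest, and rose by log2 0.33, SE 0.10 (edgeR adjusted p 0.0380). pas-4 had 132 and 122 FPKM in ASP 3 and Control 3, against 109 and 109.8 FPKM in ASP 2 and Control 2 and 118.9 and 116 FPKM in ASP 1 and Control 1, with both libraries numbered 3 highest, and rose by log2 0.31, SE 0.076 (edgeR adjusted p 0.0220).

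**Figure D5:**
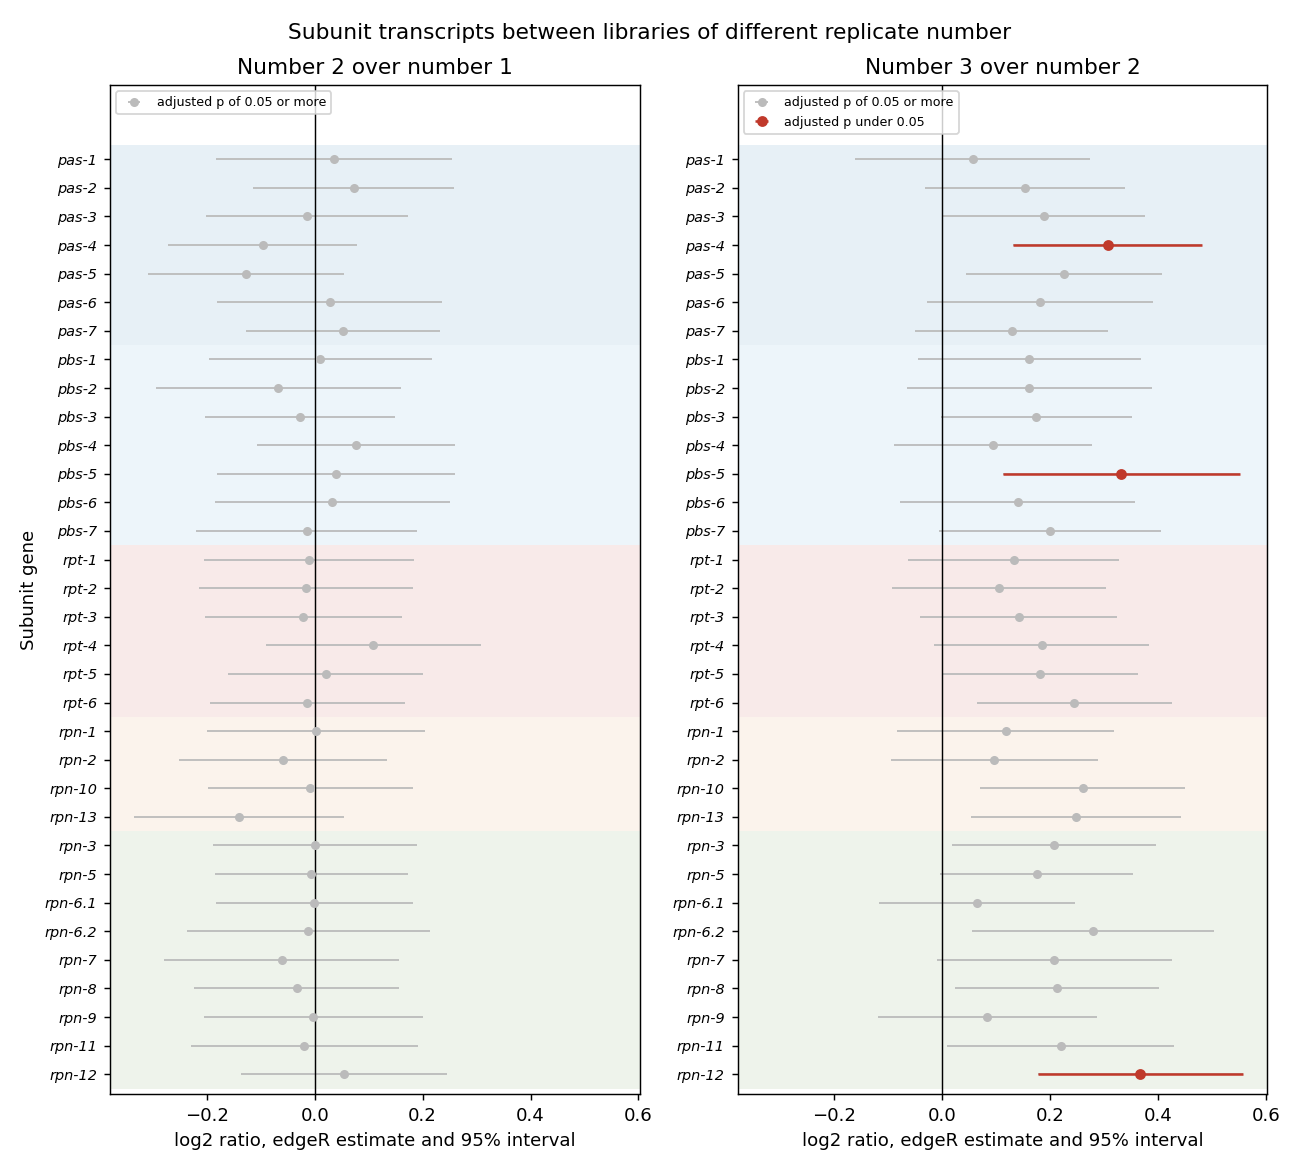
Log2 ratios with 95% intervals between libraries of different replicate number for each subunit gene, from the edgeR model with group and number, for number 2 over number 1 (left) and number 3 over number 2 (right); red marks an adjusted p under 0.05. On the left 13 of 33 estimates are above 0 and on the right all 33 are, with 3 past the threshold.

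Several subunits lay just outside the threshold. The ubiquitin receptor genes rpn-10 (log2 0.26, SE 0.083, adjusted p 0.0535) and rpn-13 (log2 0.25, SE 0.085, adjusted p 0.0668) and the ATPase gene rpt-6 (log2 0.24, SE 0.079, adjusted p 0.0556) did not pass in edgeR. rpn-6.2 (log2 0.28, SE 0.10, adjusted p 0.0716) did not pass either. The smallest differences were those of pas-1 (log2 0.056, SE 0.10) and rpn-6.1 (log2 0.064, SE 0.079). By subcomplex the medians were 0.18 (alpha), 0.16 (beta), 0.16 (ATPases), 0.18 (other base) and 0.21 (lid).

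The 3 calls changed with single libraries, as did the calls over all genes. Without ASP 2, 1 subunit was called and 1403 of 13778 genes. Without Control 2, 0 subunits were called and 1409 of 13763 genes, against 3346 of 13790 genes with all libraries. Without ASP 3, 7 subunits were called and 3617 of 13799 genes, and each of the other 3 libraries left out gave 2 subunits and 3208 to 3420 genes. The log2 ratio of pas-4 stayed between 0.30 and 0.31 in these fits, while its adjusted p in edgeR was 0.114 without ASP 2, 0.106 without Control 2, 0.0512 without ASP 1 and 0.0502 without Control 1. For rpn-12 the log2 ratio was 0.43 without ASP 2 (adjusted p 0.0506 in edgeR) and 0.30 without Control 2 (0.128). For pbs-5 it was 0.20 without Control 2 (adjusted p 0.252 in edgeR) and 0.29 without Control 3 (0.0824). With no filter on low genes 0 subunits and 1195 of 25212 genes were called, with the subunits' median log2 ratio still 0.18. On FPKM, limma called 1 subunit and 3194 of 13790 genes. On that scale 29 subunits were above 0, with a median of 0.09 against -0.09 over all tested genes. Within groups, on FPKM, 26 subunits were higher in ASP 3 than in ASP 2 (median log2 ratio 0.10) and 27 in Control 3 than in Control 2 (0.07).

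Markers of molting and of oocytes and yolk also differed between the same libraries. All 6 molting markers were called higher in number 3 over number 2 (median log2 ratio 1.03) and in number 2 over number 1 (1.34). Their summed level was 101, 186 and 500.4 FPKM in ASP 1, 2 and 3, against 104, 224 and 434 FPKM in Control 1, 2 and 3. All 6 oocyte and yolk markers were called lower in number 3 over number 2 (-1.07), with sums of 2271, 2231 and 768 FPKM in ASP 1, 2 and 3, against 2697, 2099 and 840.4 FPKM in Control 1, 2 and 3. Of 6 muscle markers 3 were called higher (0.44), of 6 epidermis markers 4 higher and 2 lower (0.80), and of 6 intestine markers 1 lower (-0.23). Of 6 germ line markers 1 was called higher and 1 lower (-0.02), of 9 sperm markers 1 higher (0.16), and of 6 neuron markers 0 (-0.07). These last 3 medians were smaller in size than that of the subunits (0.18). None of these markers was at 0 in any library. In ASP against Control none of the markers was called. The part of these tissues in the subunit differences was not tested.

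Genes that work with the proteasome were counted from lists of known function, and none was called in ASP against Control. Of 8 proteasome-associated proteins 3 were above 0 (median -0.02), and of 10 genes listed around SKN-1A 3 (-0.03). Of 11 for ubiquitin, its activation and CDC-48 2 were above 0 (-0.02). Of 22 tested ubiquitin-conjugating enzymes (25 listed) 9 were above 0 (-0.0093), and of 14 cullins and partners 4 (-0.02). The SKN-1A list holds skn-1, ddi-1, png-1, sel-1, sel-9, sel-11, aip-1, wdr-23, mdt-15 and xrep-4. These differ in role, so their count and median do not measure a SKN-1A response. skn-1, which encodes the factor that switches on subunit genes when the proteasome is impaired, had 55.0 ± 2.92 FPKM in ASP and 58.1 ± 2.12 FPKM in Control (SD, n = 3 each, log2 -0.10, SE 0.080). ddi-1, the protease that activates SKN-1A, had 36.2 ± 5.59 FPKM in ASP and 36.6 ± 4.77 FPKM in Control (log2 -0.035, SE 0.13). png-1, the glycanase that acts with it, had 17.6 ± 1.73 FPKM in ASP and 18.5 ± 0.207 FPKM in Control (log2 -0.090, SE 0.11).

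The polyubiquitin gene ubq-1 had 213 ± 28.5 FPKM in ASP and 234 ± 22.5 FPKM in Control (log2 -0.16, SE 0.15). ubq-2, a fusion of ubiquitin with a ribosomal protein, was far more abundant, with 2003 ± 198 FPKM in ASP and 1982 ± 84.2 FPKM in Control (log2 -0.0087, SE 0.12). The unfolding ATPase CDC-48, which hands substrates to the proteasome, is encoded by cdc-48.1, with 162 ± 4.36 FPKM in ASP and 163 ± 4.41 FPKM in Control (log2 -0.024, SE 0.089), and cdc-48.2, with 107 ± 3.52 FPKM in ASP and 112 ± 6.52 FPKM in Control (log2 -0.092, SE 0.11). These are close paralogs, so their separate values are uncertain. The smallest p in their lists belonged to usp-14 (a proteasome-bound deubiquitinase, log2 -0.12, SE 0.10), ubc-14 (an E2 enzyme, log2 -0.28, SE 0.11) and cul-4 (a cullin scaffold, log2 0.12, SE 0.10). The ubc-14 gene had 36.6 ± 1.62 FPKM in ASP and 44.0 ± 1.77 FPKM in Control, at an edgeR adjusted p of 0.9999. Its ASP libraries all lay below its Control libraries in FPKM, as for 1.10% of tested genes. Its overlap in TMM-scaled counts was not examined.

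In number 3 over number 2, genes of these lists were called in both directions. In edgeR they were sel-9 of the SKN-1A list (log2 0.41, SE 0.079, adjusted p 0.00743), ubq-1 (log2 0.37, SE 0.10, adjusted p 0.0298), the E2 genes ubc-1 (log2 -0.43, SE 0.088, adjusted p 0.0102) and ubc-9, the SUMO E2 (log2 -0.31, SE 0.078, adjusted p 0.0224), the cullin adaptor gene mel-26 (log2 -0.48, SE 0.094, adjusted p 0.00832) and the elongin gene elc-1 (log2 -0.36, SE 0.091, adjusted p 0.0226). List medians were 0.07 (5 of 8 above 0) for associated proteins, -0.01 (5 of 10) for the SKN-1A list, 0.0085 (6 of 11) for ubiquitin and CDC-48, -0.08 (8 of 22) for E2 enzymes and -0.08 (2 of 14) for cullins.

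The complexes most like the lid in build are the COP9 signalosome, which trims NEDD8 from cullins, and the translation initiation factor eIF3; the CCT chaperonin is another ring of many subunits. None of their genes was called in ASP against Control. The COP9 signalosome had 2 of 7 above 0 (median -0.02), eIF3 1 of 11 (-0.06) and CCT 1 of 8 (-0.03). The genes with the smallest p were csn-5 (log2 -0.085, SE 0.12), csn-4 (log2 -0.048, SE 0.11), egl-45 (log2 -0.11, SE 0.10), eif-3.B (log2 -0.11, SE 0.12), cct-1 (log2 -0.10, SE 0.12) and cct-6 (log2 -0.081, SE 0.11). In number 3 over number 2, all 11 eIF3 genes were above 0 (median 0.19), of which eif-3.I was called (log2 0.29, SE 0.088, adjusted p 0.0439 in edgeR). Above 0 were also 7 of 8 CCT genes (median 0.17, 0 called) and 2 of 7 COP9 genes (-0.12, 0 called). No test of a difference between complexes was made.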

How the data were processed

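Gene expression was measured by RNA sequencing in 6 libraries, 3 ASP and 3 Control, grouped by their titles. The authors deposited 1 table which, per the file headers, holds FPKM and counts by gene and library. The counts are estimated counts per gene by the authors, deposited as whole numbers, so rounding changed nothing. Not given in the sources used here are aligner, counting tool and strand setting. CASAVA 1.4, mm9 and mm10 (both mouse builds) are listed in the submitters' processing notes, but the chromosome accessions in the table are those of C. elegans build WBcel235. Start and end of 29 of the 33 genes equal those in RefSeq's table of that assembly, and exonic lengths come from Ensembl's annotation of it. Gene numbers beside a symbol are the table's gene IDs. No sequence is shown.

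Genes averaging 1 FPKM or more were tested on the estimated counts by edgeR 4.0.16 (R 4.3.3; TMM, quasi-likelihood F test, Benjamini-Hochberg, threshold 0.05), without a replicate block. Intervals are 95% intervals of the fit. Replicate numbers were tested in a model with group and number. Deviations from the group means correlated by 0.769, 0.482 and 0.791 between same-numbered libraries, each library's best match, so the numbers were taken to pair the libraries. Alternatives were the block, RLE scaling, no filter, a minimum of 5 FPKM, DESeq2 1.42.0, limma 3.58.1 on log2(FPKM + 1) or log2(FPKM + 0.1), and each library left out. The edgeR fits were tested on simulated data with changes larger than any seen in the subunits, so recovery of changes of their size was not tested. The gene members, lists and tests were chosen with earlier results of these data known. Named subunits are the highest and lowest of each subcomplex, the 3 with the smallest p in each direction, the 4 with the smallest p for the replicate number and 10 of known role. From the other lists the called genes, otherwise those with the smallest p, and 7 regulators and ubiquitin genes are named. Other subunits are named after their values were seen.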

Additional observations from a re-analysis of the deposited data

How the results depend on the processing

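Every alternative run left 0 subunits called in ASP against Control, and number 2 against number 1 also kept 0. With the replicate number as a block the ASP count above 0 was 5 and the median log2 ratio -0.066, and the block changed no call. The counts of subunits called by number were less steady. For the replicate number as a whole, 3 calls became 5 with no group term, 0 with no filter on low genes and 1 with limma on log2(FPKM + 1), and for number 3 against number 2, 3 calls became 6, 0 and 1 under the same settings. With no filter the calls over all genes fell as well, to 1804 and 1195 of 25212 genes, against 4579 and 3346 of 13790. With each library left out in turn these counts ran from 1 to 2 and from 0 to 7. The number of subunits above 0 in ASP against Control then ran from 1 to 17, and the median log2 ratio from -0.11 to 0.000046. A library left out leaves its replicate number in 1 group only, so differences between numbers then enter that comparison.

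The sign of the log2 ratio of ASP over Control changed for some subunits, with ratios up to the size of rpn-11 (-0.099). rpt-4 (0.0034) became -0.00025 with no filter, -0.0043 with the block, -0.00068 with RLE scaling, -0.00071 with DESeq2, -0.0083 with DESeq2 and the block, and -0.0083 with the block and RLE scaling. With limma on log2(FPKM + 1), with and without the block, pbs-3, rpt-5 and rpn-9 became 0.0036, 0.0099 and 0.0052, and with limma on log2(FPKM + 0.1) they became 0.0036, 0.00997 and 0.0052. Leaving out libraries gave log2 ratios of both signs for pas-2 (-0.11 to 0.017), pas-4 (-0.071 to 0.11), pbs-3 (-0.067 to 0.044), pbs-4 (-0.10 to 0.015), pbs-5 (-0.19 to 0.061), pbs-6 (-0.12 to 0.027), rpt-1 (-0.10 to 0.000046), rpt-4 (-0.12 to 0.086), rpt-5 (-0.070 to 0.064), rpt-6 (-0.10 to 0.065), rpn-1 (-0.067 to 0.037), rpn-2 (-0.079 to 0.00036), rpn-3 (-0.058 to 0.087), rpn-6.2 (-0.084 to 0.11), rpn-7 (-0.15 to 0.0044), rpn-9 (-0.066 to 0.034), rpn-11 (-0.17 to 0.0070) and rpn-12 (-0.11 to 0.18). In number 3 over number 2, limma on log2(FPKM + 1) gave -0.037 for pas-1, -0.00024 for pbs-4, -0.030 for rpn-6.1 and -0.012 for rpn-9, and leaving out libraries gave -0.077 to 0.19 for pas-1. The cause was not tested. Depth was not tested as a limit. With the block, on the same 6 libraries, the subunits' intervals spanned -0.34 to 0.21, against -0.47 to 0.42 without it. Fits that pair the block with limma, DESeq2 or RLE scaling, and the TMM-scaled counts for overlap and pairs, were added after the data were seen.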
